A study of Mus musculus with 16 samples.

Results

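This comparison uses 4 of the 16 RNA-seq libraries of the series, 2 of the group ERKO OVX vehicle and 2 of the group KO vehicle, and all 24001 gene rows of the table. The libraries were chosen by their labels for operation, receptor and treatment. The question is how bone marrow-derived dendritic cells from NZM2410 mice, a strain that develops lupus, differ when the donor mice had been ovariectomized and given estradiol, with the receptor allele and the culture the same by label. ERKO OVX donors had their ovaries removed at 4 to 8 weeks of age and received a 0.25 mg pellet that releases 17β-estradiol over 90 days. KO donors had no operation. The cells of both groups were grown for 7 days with GM-CSF at 20 ng/ml and IL-4 at 10 ng/ml, and the vehicle wells were left without the Toll-like receptor agonists that other wells received for 24 h.

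Both groups carry the same altered estrogen receptor α (ERα) locus, so neither is a control with normal receptor. The source labels call it ERKO short, the older disruption of Esr1 that leaves a shortened receptor. The genotype field of all 4 libraries instead names Esr1(tm4.2Ksk), and their description says that tissues do not respond to estrogen. Which of the 2 alleles was present could not be settled here, but it is the same in both groups under either label. The labels do not tell whether replicate libraries stem from different mice, pools or cultures, and the p-values may thus measure technical spread only. The labels of KO vehicle replicate 2 add that 1 of its 2 raw read files was corrupted.

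Estradiol acts through the nuclear receptors ERα and ERβ, which bind DNA at estrogen response elements or through partners such as AP-1, and through membrane receptors. In marrow cultures with GM-CSF and IL-4 the progeny are a mixture of dendritic cells, which present antigen and express MHC class II, CCR7 and costimulatory ligands, and macrophage-like cells, with granulocytes and their precursors as minor members. ERα in myeloid progenitors is known to favour differentiation of dendritic cells in such cultures. Here the estradiol was given to the donor mouse, and the labels name no estradiol added to the culture.

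Values are the deposited FPKM (fragments per kilobase of transcript, scaled to the library's mapped fragments), and 11348 genes passed the level filter of 1 FPKM in 2 or more of the 16 libraries. Depth could only be estimated roughly, from the steps between low values, at about 22.7 and 23.7 M fragments in ERKO OVX libraries and 42.5 and 42 M in KO libraries. The FPKM of a library summed to 652417 and 649892 in ERKO OVX libraries and to 481738 and 487852 in KO libraries. The ERKO OVX pair differed by no more than the estimated sampling noise, with a variance of 0.895 times the sampling variance in 528 well-covered genes, against 3.97 times in 859 genes of the KO pair. Hence the mean of the ERKO OVX pair entered the fit as 1 sample, and the standard errors below (±, log2 scale) come from the unoperated groups of the series. Operation, pellet, depth and FPKM sum change together here, and their parts in any difference cannot be told apart.

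Esr1 itself (chromosome 10, 4611593 to 5005614, plus strand, mm10, with gene spans from GENCODE M21) was low in both groups. It had 1.02 and 0.982 FPKM in ERKO OVX libraries and 2.47 and 2.57 FPKM in KO libraries, and the groups did not overlap. The log2 fold change, given throughout as ERKO OVX over KO on the log2(FPKM + 1) scale, was -0.81 ± 0.10 (limma adjusted p = 2.16e-05). A gene-level FPKM value does not show which part of Esr1 was transcribed, so this is no check of the allele. The 4 Y-linked genes looked for (Ddx3y, Kdm5d, Eif2s3y and Uty) were listed at 0 in all 4 libraries, and Xist was present in all 4.

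Expression differed widely between the groups. At a limma adjusted p under 0.05, 4648 genes were higher in ERKO OVX (41.0% of those tested) and 4529 lower (39.9%). Past a 1.5-fold difference by limma's treat test, 1255 genes were higher (11.1%) and 1380 lower (12.2%), and this stricter call is used below for "past 1.5-fold". A further cut at 2-fold with adjusted p under 0.05 left 679 higher (5.98%) and 788 lower (6.94%), a balance that depends on the pseudocount, with 385 higher and 308 lower at 5 FPKM and 935 higher and 1246 lower at 0.1 FPKM. The median log2 fold change of all genes was 0.01 and the median size without sign was 0.38. The median absolute log2 difference between libraries of a pair, in genes at 10 FPKM or more, was 0.0307 for ERKO OVX and 0.0342 for KO. Because 80.9% of genes passed the plain test, a passed test says little about any single gene, and sizes are given throughout. The counts over gene lists below stand against these shares, and in no list other than cell type markers did more than 2 tested members pass the level filter only through operated libraries.

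**Figure D1:**
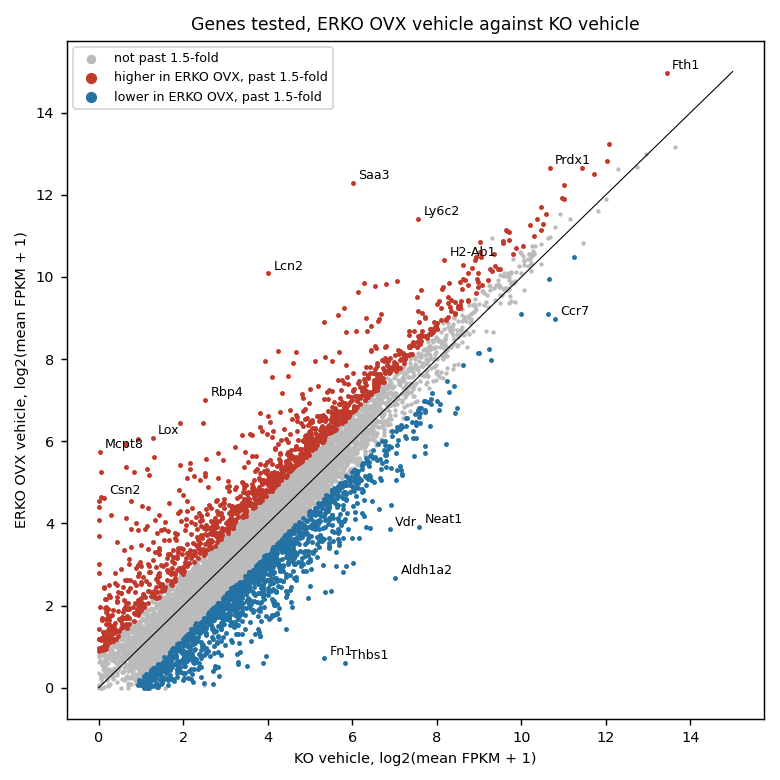
Mean level of each tested gene in ERKO OVX vehicle libraries (vertical, log2(FPKM + 1)) against KO vehicle libraries (horizontal), with 1 point per gene and the line of equality. The 1255 red genes lie above and the 1380 blue genes below the line by more than 1.5-fold by limma's treat test, and Saa3 and Lcn2 stand farthest above and Thbs1 and Fn1 farthest below.

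The largest rise was that of Saa3 (chromosome 7, 46711998 to 46715700, minus strand), an acute-phase serum amyloid that macrophages make during inflammation. It had 5015 and 5040.4 FPKM in ERKO OVX libraries and 63.7 and 63.2 FPKM in KO libraries, a log2 fold change of 6.29 ± 0.07 (limma adjusted p = 1.9e-11). Its relatives Saa1 and Saa2 were below 0.1 FPKM in all 4 libraries. Lcn2 (chromosome 2, 32384633 to 32388252, minus strand), a lipocalin that binds bacterial siderophores and withholds iron, had 1085 and 1090.2 FPKM in ERKO OVX and 15.8 and 14.6 FPKM in KO (6.07 ± 0.11, limma adjusted p = 2.94e-09). In both genes the libraries of a group lay close together and the groups far apart. Lox, which crosslinks collagen and elastin, had 66.9 and 67.5 FPKM in ERKO OVX and 1.55 and 1.30 FPKM in KO (4.81 ± 0.06). Susd2, a membrane protein with sushi domains, had 65.8 and 65.2 FPKM in ERKO OVX and 0.901 and 0.896 FPKM in KO (5.13 ± 0.06).

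Vnn3 belongs to the vanins, which release cysteamine from pantetheine. It had 40.2 and 40.7 FPKM in ERKO OVX and 0.571 and 0.561 FPKM in KO (4.73 ± 0.07). Plac8, a small protein of myeloid and lymphoid precursors and of plasmacytoid cells, had 83.7 and 87.2 FPKM in ERKO OVX and 2.60 and 3.03 FPKM in KO (4.51 ± 0.20). U90926, a row for which no role is given here, had 62.2 and 58.8 FPKM in ERKO OVX and 0.758 and 0.379 FPKM in KO (5.30 ± 0.18). In each of these the lowest ERKO OVX library lay more than 10 times above the highest KO library.

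Rbp4 carries retinol in plasma. It had 127 and 128 FPKM in ERKO OVX and 5.31 and 4.20 FPKM in KO (4.49 ± 0.11). Gsta4, a glutathione transferase that clears lipid aldehydes, had 39.6 and 38.9 FPKM in ERKO OVX and 1.08 and 1.31 FPKM in KO (4.20 ± 0.11). Gsta2 had 35.5 and 38.2 FPKM in ERKO OVX and 0.737 and 0.837 FPKM in KO (4.41 ± 0.14), a value that is uncertain because reads can be split with its near copy Gm3776, which had 16.04 and 18.8 FPKM in ERKO OVX and 0.218 and 0.219 FPKM in KO. Csn2, the milk protein β-casein, had 23.6 and 23.9 FPKM in ERKO OVX and 0.144 and 0.0481 FPKM in KO (4.50 ± 0.09), although Prlr, the prolactin receptor, was below 0.1 FPKM in all 4 libraries.

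**Figure D2:**
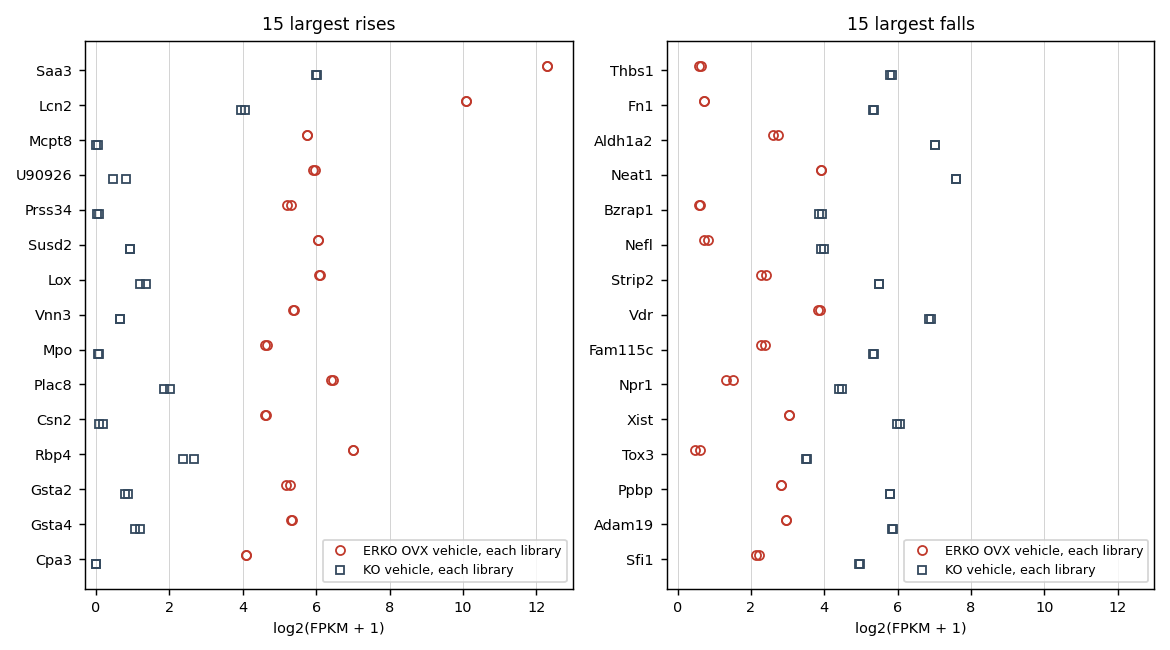
Level in each library (log2(FPKM + 1)) of the 15 genes with the largest rises (left) and the largest falls (right) among named genes past 1.5-fold and at 10 FPKM or more in the higher group. Circles are the 2 ERKO OVX vehicle libraries and squares the 2 KO vehicle libraries. The genes were picked for a large difference between the groups, so the gap between circles and squares follows from that choice.

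At 5 FPKM or more in both ERKO OVX libraries and 0.5 FPKM or less in both KO libraries were 10 genes. The 8 at the highest level are Csn2 and 7 others, most of them granule or surface proteins of basophils, mast cells and granulocyte precursors. Mcpt8, a basophil protease, had 52.6 and 52.5 FPKM in ERKO OVX and 0 and 0.033 FPKM in KO. Prss34, a protease of basophils and mast cells, had 38.5 and 36.2 FPKM in ERKO OVX and 0.0209 and 0.063 FPKM in KO. Cpa3, mast cell carboxypeptidase A, had 15.96 and 16.1 FPKM in ERKO OVX and was listed at 0 in both KO libraries. Levels near 0 in KO cells follow from the rule by which these genes were picked. Mpo, the myeloperoxidase of neutrophil granules, had 24.4 and 23.6 FPKM in ERKO OVX and 0.0549 and 0.0369 FPKM in KO. Ctsg, the granule protease cathepsin G, had 12.4 and 11.2 FPKM in ERKO OVX and was listed at 0 in both KO libraries. Fcer1a, the IgE-binding chain of the high-affinity IgE receptor, had 7.19 and 6.94 FPKM in ERKO OVX and 0 and 0.0257 FPKM in KO. Adh7, an alcohol dehydrogenase that oxidizes retinol, had 10.8 and 10.6 FPKM in ERKO OVX and 0.422 and 0.299 FPKM in KO.

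Summed levels of markers of other blood cells differed between the groups. The 10 listed markers of basophils and mast cells summed to 125 and 123 FPKM in ERKO OVX libraries and 2.58 and 3.11 FPKM in KO libraries. Of the 8 that passed the level filter, 5 did so only through operated libraries of the series, so their direction was largely set by the filter and no count of rises is given. The mast cell tryptase Tpsb2 was listed at 0 in all 4 libraries. Markers of neutrophils and their precursors had a sum of 2466 and 2469 FPKM in ERKO OVX and 209.7 and 199 FPKM in KO. Lcn2, given above, is in this list, and with S100a8 and S100a9 it made up most of the ERKO OVX sum. Of the 12 tested 1 was lower in ERKO OVX, and likewise 6 passed the filter only through operated libraries. Among the others S100a8, a subunit of calprotectin, had 924 and 926 FPKM in ERKO OVX and 80.1 and 71.7 FPKM in KO. Its partner S100a9 had 292 and 289 FPKM in ERKO OVX and 19.5 and 16.4 FPKM in KO (3.95 ± 0.69, limma adjusted p = 0.00556), the largest standard error of the genes described here. Camp, the cathelicidin of neutrophil granules, had 44.8 and 46.9 FPKM in ERKO OVX and 6.91 and 6.56 FPKM in KO. Cxcr2 and Retnlg, which mature neutrophils express, were below 0.4 FPKM in all 4 libraries.

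The 9 listed markers of T and NK cells summed to 18.6 and 18.8 FPKM in ERKO OVX libraries and 2.03 and 2.37 FPKM in KO libraries, and 3 of the 5 tested passed the filter only through operated libraries. Gzmb, a cytotoxic protease, had 13.2 and 13.4 FPKM in ERKO OVX and 0.788 and 1.04 FPKM in KO, whereas Cd3e, a chain of the T cell receptor complex, stayed below 0.5 FPKM in every library. Cd79b, a chain of the B cell receptor, had 3.86 and 3.65 FPKM in ERKO OVX and 0.128 and 0.257 FPKM in KO. Of the osteoclast list 4 of 5 tested rose and 1 fell, with 1 in each direction past 1.5-fold. That list summed to 516.6 and 518 FPKM in ERKO OVX libraries and 529.2 and 528.8 FPKM in KO libraries. Both tested megakaryocyte genes (Pf4 and Ppbp) fell. Stromal markers summed to 3.17 and 3.27 FPKM in ERKO OVX libraries and 1.21 and 1.31 FPKM in KO libraries. No erythroid or adipocyte marker passed the level filter. Bulk RNA cannot tell a change in the number of such cells from a change in the RNA per cell, and the part of these markers in the other results was not tested.

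Most macrophage and monocyte markers were higher and most dendritic cell markers lower. Of 10 tested macrophage and monocyte markers 8 rose, all past 1.5-fold, and 2 fell, 1 of them past 1.5-fold. The sum of the listed markers was 6199.6 and 6163 FPKM in ERKO OVX and 1313 and 1315 FPKM in KO. Ly6c2, the antigen of inflammatory monocytes, made up much of that sum with 2747 and 2729 FPKM in ERKO OVX and 188 and 189 FPKM in KO (3.85 ± 0.04, limma adjusted p = 3.62e-12). Marco, a scavenger receptor for bacteria, had 245 and 247 FPKM in ERKO OVX and 14.2 and 14.5 FPKM in KO (4.01 ± 0.05).

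Of 7 tested dendritic cell markers 1 rose and 6 fell, 5 of them past 1.5-fold, and 1 of the 7 (Dpp4) passed the filter only through unoperated libraries. Zbtb46, a transcription factor of classical dendritic cells, had 4.28 and 4.20 FPKM in ERKO OVX and 21.4 and 22.8 FPKM in KO (-2.14 ± 0.07). Irf4, a factor of type 2 dendritic cells, had 26.7 and 26.01 FPKM in ERKO OVX and 74.6 and 74.1 FPKM in KO (-1.46 ± 0.03). The marker that rose was Itgax (CD11c), with 155 and 152 FPKM in ERKO OVX and 115 and 111 FPKM in KO (0.44 ± 0.04). CD11c was thus abundant in all 4 libraries, whereas Cd209a was listed at 0 in all 4 and Xcr1 and Clec9a stayed below 0.5 FPKM.

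Cytokine genes were higher in the unstimulated ERKO OVX cells. Of 19 tested, 14 rose, 13 of them past 1.5-fold, 2 fell (Il15 and Lif) and 3 did not pass the test, with a median log2 fold change of 1.26 against 0.01 over all genes. Il1b, the inflammasome-processed interleukin, had 912 and 908 FPKM in ERKO OVX and 113 and 108 FPKM in KO (3.03 ± 0.18, limma adjusted p = 3.29e-05). Tnf had 97.6 and 95.8 FPKM in ERKO OVX and 15.4 and 14.6 FPKM in KO (2.61 ± 0.25, limma adjusted p = 0.000382). Il6 had 86.5 and 87.2 FPKM in ERKO OVX and 26.5 and 26.5 FPKM in KO (1.68 ± 0.06). These levels were reached without agonist. Il12a, the p35 chain of IL-12, had 9.74 and 9.79 FPKM in ERKO OVX and 0.555 and 0.818 FPKM in KO (2.68 ± 0.08). Il12b, its p40 chain, had 196 and 196 FPKM in ERKO OVX and 81.7 and 80.6 FPKM in KO (1.26 ± 0.05). The antagonist Il1rn, which blocks the IL-1 receptor, rose as well, with 469.9 and 477 FPKM in ERKO OVX and 258 and 252 FPKM in KO (0.89 ± 0.04). Il15, which sustains NK and memory T cells, fell, with 15.8 and 14.4 FPKM in ERKO OVX and 24.2 and 25.7 FPKM in KO (-0.69 ± 0.04). Ifnb1, the type I interferon itself, had 0.33 and 0.128 FPKM in ERKO OVX and 0.0366 and 0.11 FPKM in KO and did not pass the test (limma adjusted p = 0.0556).

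Of 12 tested CC chemokines 9 rose and 1 fell (Ccl6), but only 4 (Ccl3, Ccl4, Ccl7 and Ccl8) rose past 1.5-fold. Ccl4, a chemoattractant for monocytes and T cells, had 288 and 292 FPKM in ERKO OVX and 25.3 and 23.9 FPKM in KO (3.51 ± 0.13). Ccl3, a related chemokine whose gene lies beside Ccl4, had 409 and 403 FPKM in ERKO OVX and 54.8 and 58.9 FPKM in KO (2.82 ± 0.07). Ccl5, the most abundant chemokine of the lists, had 8102 and 8067 FPKM in ERKO OVX and 7599 and 8227 FPKM in KO (0.03 ± 0.05), within the spread of the KO pair. Ccl22, a ligand of CCR4 that dendritic cells make in quantity, also missed the test, with 6497 and 6504 FPKM in ERKO OVX and 6655 and 6952 FPKM in KO. Of 9 tested CXC chemokines 8 rose (88.9%), 4 of them past 1.5-fold (44.4%), and 1 fell, also past 1.5-fold. Cxcl10, an interferon-inducible ligand of CXCR3, had 42.1 and 35.8 FPKM in ERKO OVX and 3.41 and 3.55 FPKM in KO (3.16 ± 0.16). Cxcl14 was the member that fell, with 9.01 and 8.60 FPKM in ERKO OVX and 48.5 and 47.95 FPKM in KO (-2.33 ± 0.06).

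Interferon-stimulated genes were higher as a list: 22 of 25 rose, 17 past 1.5-fold, and 3 fell (Mx1, Oas2 and Stat2), with a median of 1.14. Ifit3, an antiviral protein that stabilizes IFIT complexes, had 80.8 and 80.2 FPKM in ERKO OVX and 13.1 and 12.9 FPKM in KO (2.54 ± 0.04). Irf7, the factor that amplifies interferon α production, had 410.1 and 410.3 FPKM in ERKO OVX and 80.5 and 81.4 FPKM in KO (2.33 ± 0.03, limma adjusted p = 4.02e-12). Isg15, a ubiquitin-like modifier, had 509 and 499.5 FPKM in ERKO OVX and 98.2 and 96.6 FPKM in KO (2.36 ± 0.06). Rsad2 (viperin), which makes a chain-terminating nucleotide, had 75.2 and 74.3 FPKM in ERKO OVX and 13.3 and 13.7 FPKM in KO (2.39 ± 0.07). Mx1, a dynamin-like antiviral GTPase, had 7.15 and 6.34 FPKM in ERKO OVX and 25.8 and 27.3 FPKM in KO (-1.83 ± 0.07). Mx1 was the member past 1.5-fold in the downward direction, and its values did not overlap between groups.

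The promoters of 4 genes that rose are shown: Saa3 as the largest rise, and Ifit1, Isg15 and Prdx1 because they carry the letters of a motif tied to their list. Searches covered the 250 bases before the transcription start (RefSeq, GRCm38.p6, the same assembly as mm10), and bases inside the annotated gene span are not printed. Capitals mark matches, on either strand, to GAAANNGAAA, the core of the interferon-stimulated response element (ISRE), in Saa3, Ifit1 and Isg15, and to TGACNNNGC, the antioxidant response element bound by NRF2, in Prdx1, a motif added after the NRF2 values were seen. The coordinates are chr7:46715701-46715926, minus strand for Saa3, chr19:34640639-34640870, plus strand for Ifit1, chr4:156200819-156201068, minus strand for Isg15 and chr4:116685349-116685543, plus strand for Prdx1.
Saa3: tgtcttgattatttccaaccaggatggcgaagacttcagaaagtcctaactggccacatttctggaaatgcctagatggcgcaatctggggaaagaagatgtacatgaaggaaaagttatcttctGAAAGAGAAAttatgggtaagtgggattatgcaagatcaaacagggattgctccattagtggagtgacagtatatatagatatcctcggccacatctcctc
Ifit1: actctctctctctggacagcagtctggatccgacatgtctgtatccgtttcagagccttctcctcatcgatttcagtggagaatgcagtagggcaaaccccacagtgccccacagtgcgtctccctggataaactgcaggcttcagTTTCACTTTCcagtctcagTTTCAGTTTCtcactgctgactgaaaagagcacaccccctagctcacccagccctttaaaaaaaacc
Isg15: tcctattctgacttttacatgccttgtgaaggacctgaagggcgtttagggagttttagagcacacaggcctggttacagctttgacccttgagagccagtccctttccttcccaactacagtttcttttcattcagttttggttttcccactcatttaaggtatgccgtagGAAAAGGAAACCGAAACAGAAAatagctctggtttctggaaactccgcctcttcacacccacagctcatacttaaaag
Prdx1: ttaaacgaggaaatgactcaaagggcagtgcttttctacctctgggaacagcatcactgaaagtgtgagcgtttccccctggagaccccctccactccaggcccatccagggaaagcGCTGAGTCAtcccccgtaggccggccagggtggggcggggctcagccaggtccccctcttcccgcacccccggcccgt

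The 2 matches in Ifit1 start 104 and 85 bases before the start site, the 3 in Isg15 overlap between 78 and 57 bases before it, the match in Saa3 spans 125 to 116 bases before it, and the match in Prdx1 spans 133 to 125 bases before it and shares 7 bases with an AP-1 match (TGANTCA). ISRE letters were in 8 of 17 promoters found for the interferon-stimulated list and in 3.04% of all 27025 promoters of this length. Antioxidant element letters were in 4 of 10 promoters of the NRF2 list and in 10.1% of all promoters. The full estrogen response element GGTCANNNTGACC was in 0 of 12 promoters found for the 15 largest rises, 0 of 8 found for the 15 largest falls and 17 of all 27025 (0.0629%). Its arm GGTCA was in 8 of those 12, in 4 of those 8 and in 34.9% of all promoters. A match is a string of letters, not a bound site.

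Most antigen presentation genes rose and most maturation genes fell. Of 10 tested MHC class II genes 9 rose, all past 1.5-fold, and the median was 1.36. H2-Ab1, a β chain of the class II molecule and 1 of a family of similar genes, had 1379.6 and 1357 FPKM in ERKO OVX and 287 and 289.8 FPKM in KO (2.24 ± 0.03). Cd74, the invariant chain that fills the class II groove before peptide loading, had 7198 and 7177 FPKM in ERKO OVX and 4204 and 4203 FPKM in KO (0.77 ± 0.02). Ciita, the master activator of these genes, had 20.8 and 20.1 FPKM in ERKO OVX and 20.5 and 20.4 FPKM in KO and did not pass the test (limma adjusted p = 0.997). B2m, the light chain of class I molecules, had 9636 and 9599.7 FPKM in ERKO OVX and 4266 and 4358 FPKM in KO (1.16 ± 0.02).

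Of 16 tested maturation and costimulation genes 3 rose, 11 fell and 2 did not pass, 9 falling past 1.5-fold, with a median of -0.77. Ccr7, the receptor that guides mature dendritic cells to lymph nodes, had 508 and 503 FPKM in ERKO OVX and 1724 and 1813 FPKM in KO (-1.80 ± 0.04, limma adjusted p = 1.2e-10). Cd83, a surface marker of mature dendritic cells, had 66.4 and 66.9 FPKM in ERKO OVX and 171 and 173 FPKM in KO (-1.36 ± 0.04). Cd80, a ligand of CD28 and CTLA-4, had 40.9 and 41.1 FPKM in ERKO OVX and 73.9 and 73.1 FPKM in KO (-0.83 ± 0.03). Its relative Cd86 fell less, with 35.9 and 33.9 FPKM in ERKO OVX and 47.1 and 48.2 FPKM in KO (-0.44 ± 0.04). Cd40, which receives T cell help, was the member that rose past 1.5-fold, with 148 and 149 FPKM in ERKO OVX and 78.4 and 79.7 FPKM in KO (0.90 ± 0.05). Among the other chemokine receptors Ccr2, the monocyte receptor for CCL2, fell, with 2.45 and 2.14 FPKM in ERKO OVX and 15.9 and 16.1 FPKM in KO (-2.36 ± 0.10). Cx3cr1, the fractalkine receptor, rose, with 7.06 and 7.88 FPKM in ERKO OVX and 2.51 and 2.13 FPKM in KO (1.35 ± 0.11).

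Fc receptors and C-type lectins, which bind antibodies and microbial sugars, had the highest median of the lists other than cell type markers, at 1.38: 12 of 13 rose and 1 fell (Clec4b1). Clec4e (Mincle), a receptor for mycobacterial glycolipid, had 543 and 547 FPKM in ERKO OVX and 107 and 96.9 FPKM in KO (2.41 ± 0.06). Clec4a1, a lectin of the DCIR family whose close copies can share reads, had 191 and 187 FPKM in ERKO OVX and 16.6 and 15.96 FPKM in KO (3.46 ± 0.04). Fcer1g, the signalling chain common to several of these receptors, had 1845 and 1821 FPKM in ERKO OVX and 508 and 521 FPKM in KO (1.83 ± 0.03).

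**Figure D3:**
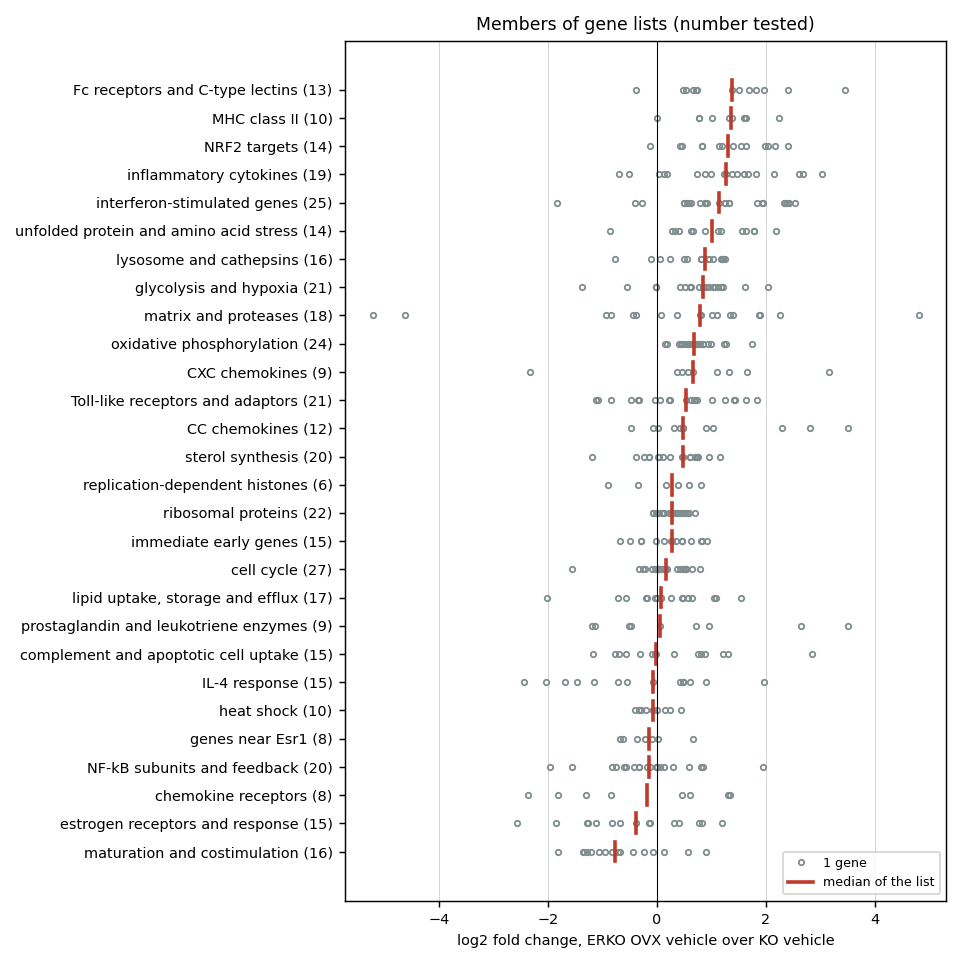
Log2 fold change (ERKO OVX vehicle over KO vehicle, horizontal) of each tested member (circles) and the median (red bar) of every gene list other than cell type markers with 5 or more tested members, sorted by median, with the number tested in brackets. Fc receptors and C-type lectins have the highest median (1.38) and maturation and costimulation genes the lowest (-0.77), and matrix genes span the widest range.

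Sensors and signalling genes split. Of 21 Toll-like receptor genes and adaptors tested, 13 rose (61.9%) and 6 fell (28.6%), against 41.0% and 39.9% of all genes. Past 1.5-fold 6 rose (28.6%) and 3 fell (14.3%), against 11.1% and 12.2% of all genes. Tlr1, a partner of TLR2 for lipopeptides, had 5.58 and 6.34 FPKM in ERKO OVX and 1.01 and 0.861 FPKM in KO (1.85 ± 0.07). Tlr7, the receptor for single-stranded RNA, had 24.3 and 23.2 FPKM in ERKO OVX and 14.3 and 14.1 FPKM in KO (0.71 ± 0.05). Tlr9, the receptor for CpG DNA, moved the other way with 7.13 and 7.51 FPKM in ERKO OVX and 16.9 and 16.04 FPKM in KO (-1.07 ± 0.04). Tlr4, which senses lipopolysaccharide, had 23.9 and 23.7 FPKM in ERKO OVX and 24.7 and 23.7 FPKM in KO and did not pass the test (limma adjusted p = 0.59).

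Of 20 NF-kB subunits and feedback genes 6 rose (30%) and 11 fell (55%), against 41.0% and 39.9% of all genes. Past 1.5-fold 3 rose (15%) and 4 fell (20%), against 11.1% and 12.2% of all genes. Rel (c-Rel), a subunit of NF-kB, had 18.2 and 18.00 FPKM in ERKO OVX and 73.97 and 72.9 FPKM in KO (-1.96 ± 0.04). Relb, a subunit of the noncanonical pathway in dendritic cells, had 39.6 and 40.6 FPKM in ERKO OVX and 119 and 119.8 FPKM in KO (-1.55 ± 0.03). Rela (p65) had 50.96 and 51.7 FPKM in ERKO OVX and 51.8 and 50.6 FPKM in KO and did not pass the test (limma adjusted p = 0.944). Socs3, an inhibitor of IL-6 family signalling, rose most, with 44.03 and 44.1 FPKM in ERKO OVX and 10.5 and 10.8 FPKM in KO (1.96 ± 0.04). Of 15 immediate early genes 9 rose (60%) and 4 fell (26.7%). The 2 that passed 1.5-fold (Atf3 and Egr2, 13.3%) both rose, near the 11.1% of all genes. Fos, the stress-responsive AP-1 subunit, had 27.4 and 26.3 FPKM in ERKO OVX and 41.6 and 45.5 FPKM in KO (-0.68 ± 0.08).

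Most oxidant defence, energy and lysosome genes rose. NRF2 is the transcription factor that induces such defence genes, and of 14 of its targets 13 rose, 11 past 1.5-fold, with a median of 1.30. Prdx1 (chromosome 4, 116685544 to 116700822, plus strand), a peroxiredoxin that reduces hydrogen peroxide, had 6473 and 6454 FPKM in ERKO OVX and 1642 and 1613 FPKM in KO (1.99 ± 0.03, limma adjusted p = 5.82e-12). Nqo1, a quinone reductase, had 104 and 105 FPKM in ERKO OVX and 18.5 and 18.95 FPKM in KO (2.42 ± 0.04). Hmox1, which degrades heme, had 1425 and 1427 FPKM in ERKO OVX and 484 and 492 FPKM in KO (1.55 ± 0.02). Slc7a11, the cystine importer, was the member that fell, with 94.2 and 95.4 FPKM in ERKO OVX and 106 and 101 FPKM in KO (-0.12 ± 0.03), and its sign turned to 0.03 once a trend with transcript length was removed. Nfe2l2, which encodes NRF2 itself, had 136 and 135 FPKM in ERKO OVX and 153 and 149 FPKM in KO (-0.16 ± 0.04). Iron storage genes, whose pseudogenes can share reads with them, were among the most abundant of all. Fth1, the ferritin heavy chain, had 32067 and 32103 FPKM in ERKO OVX and 11347 and 10886 FPKM in KO (1.53 ± 0.05). The light chain Ftl1 had 4858 and 4848 FPKM in ERKO OVX and 1987 and 2124 FPKM in KO (1.24 ± 0.04).

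All 24 nuclear genes of oxidative phosphorylation rose, 12 past 1.5-fold, with a median of 0.68. Ndufa4, a subunit of the respiratory chain, had 286 and 297 FPKM in ERKO OVX and 85.9 and 86.9 FPKM in KO (1.74 ± 0.04). No mitochondrially encoded gene of the list was in the table. Of 21 glycolysis and hypoxia genes 16 rose and 2 fell, and the median was 0.85. Slc2a1, the glucose transporter GLUT1, had 123 and 124 FPKM in ERKO OVX and 53.2 and 52.3 FPKM in KO (1.21 ± 0.03). Pfkfb3, which makes the activator of phosphofructokinase, fell, with 28.2 and 27.2 FPKM in ERKO OVX and 73.2 and 74.1 FPKM in KO (-1.38 ± 0.03). Gapdh, often taken as a steady gene, had 1388 and 1367 FPKM in ERKO OVX and 873 and 907 FPKM in KO (0.63 ± 0.03).

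Of 16 lysosome genes 13 rose, 2 fell and 1 did not pass. Ctsd, the aspartic protease cathepsin D, had 6412 and 6404 FPKM in ERKO OVX and 2755 and 2818 FPKM in KO (1.20 ± 0.03). Lgmn, an asparaginyl protease of antigen processing, fell, with 177 and 177 FPKM in ERKO OVX and 299 and 303 FPKM in KO (-0.77 ± 0.03). Of 14 genes of the unfolded protein and amino acid responses 13 rose and 1 fell (Sesn2), with a median of 1.01. Phgdh, the first enzyme of serine synthesis, had 72.5 and 69.97 FPKM in ERKO OVX and 15.2 and 14.4 FPKM in KO (2.19 ± 0.05). Of 10 heat shock genes 3 rose (30%) and 5 fell (50%), none past 1.5-fold, against 41.0% higher and 39.9% lower over all genes. Ribosomal protein genes have many pseudogenes and their values are uncertain. Of 22 tested, 17 rose (77.3%) and 1 fell (4.55%), with a median of 0.28. Only 1 rose past 1.5-fold (4.55%, against 11.1% of all genes). Rps2 (0.52) lost its direction under quantile normalization (-0.01).

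Sterol synthesis genes rose in 13 of 20 cases (65%) and fell in 5 (25%). Past 1.5-fold 4 rose (20%) and 1 fell (5%), against 11.1% and 12.2% of all genes. Msmo1, a methylsterol oxidase, had 63.6 and 63.4 FPKM in ERKO OVX and 26.9 and 28.6 FPKM in KO (1.17 ± 0.04). Idi1, the isomerase that makes dimethylallyl diphosphate, had 9.86 and 9.26 FPKM in ERKO OVX and 24.1 and 22.3 FPKM in KO (-1.19 ± 0.05). Of 17 lipid handling genes 9 rose (52.9%) and 4 fell (23.5%), with a median of 0.08, against 41.0% and 39.9% of all genes. Past 1.5-fold 3 rose (17.6%) and 1 fell (5.88%). Scd1, the main stearoyl-CoA desaturase, had 9.94 and 9.75 FPKM in ERKO OVX and 43.2 and 42.02 FPKM in KO (-2.01 ± 0.04). Its relative Scd2 moved the opposite way, with 78.4 and 78.4 FPKM in ERKO OVX and 37.5 and 37.4 FPKM in KO (1.05 ± 0.04). Nr1h3, the oxysterol receptor LXRα, had 21.9 and 21.00 FPKM in ERKO OVX and 7.03 and 6.43 FPKM in KO (1.54 ± 0.06).

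The largest falls were those of 2 matrix proteins. Thbs1 (chromosome 2, 118111876 to 118127133, plus strand), thrombospondin 1, had 0.503 and 0.545 FPKM in ERKO OVX libraries and 54.6 and 56.4 FPKM in KO libraries (-5.21 ± 0.06, limma adjusted p = 4.02e-12). Fn1 (chromosome 1, 71585520 to 71653200, minus strand), fibronectin, had 0.645 and 0.642 FPKM in ERKO OVX and 39.8 and 38.8 FPKM in KO (-4.62 ± 0.06, limma adjusted p = 5.17e-12). Aldh1a2 (chromosome 9, 71215789 to 71296243, plus strand), the dehydrogenase that makes retinoic acid, had 5.67 and 5.09 FPKM in ERKO OVX and 129 and 129 FPKM in KO (-4.35 ± 0.03, limma adjusted p = 6.51e-13). Its p was the smallest of the named genes. Vdr, the vitamin D receptor, had 13.2 and 13.7 FPKM in ERKO OVX and 115 and 120.2 FPKM in KO (-3.04 ± 0.04). Npr1, the receptor of atrial natriuretic peptide, had 1.52 and 1.86 FPKM in ERKO OVX and 19.9 and 21.2 FPKM in KO (-3.00 ± 0.07). Ppbp, the platelet chemokine precursor, had 6.02 and 6.03 FPKM in ERKO OVX and 54.3 and 54.1 FPKM in KO (-2.97 ± 0.06). Nefl, the light neurofilament chain, had 0.783 and 0.656 FPKM in ERKO OVX and 14.1 and 14.9 FPKM in KO (-3.17 ± 0.06).

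Adam19, a membrane-bound metalloprotease, had 6.81 and 6.74 FPKM in ERKO OVX and 56.3 and 57.5 FPKM in KO (-2.90 ± 0.04). Log2 fold changes of the other named falls were -3.29 ± 0.10 for Bzrap1, -3.14 ± 0.05 for Strip2, -3.01 ± 0.04 for Fam115c, -2.97 ± 0.05 for Tox3 and -2.78 ± 0.05 for Sfi1. At 0.5 FPKM or less in both ERKO OVX libraries and 5 FPKM or more in both KO libraries were 4 genes. Hic1, a transcriptional repressor, had 0.182 and 0.253 FPKM in ERKO OVX and 6.26 and 6.11 FPKM in KO. Calcb, a calcitonin gene-related peptide, had 0.351 and 0.487 FPKM in ERKO OVX and 6.33 and 5.92 FPKM in KO. Wnt11, a secreted Wnt ligand, had 0.423 and 0.449 FPKM in ERKO OVX and 5.91 and 5.60 FPKM in KO. The remaining gene, Vat1l, had 0.0572 and 0.0668 FPKM in ERKO OVX and 5.60 and 5.43 FPKM in KO.

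Matrix and protease genes as a list went both ways, with 11 of 18 higher (61.1%) and 6 lower (33.3%). Past 1.5-fold 9 were higher (50%) and 4 lower (22.2%). Mmp13, a collagenase, had 153 and 154 FPKM in ERKO OVX and 31.6 and 30.8 FPKM in KO (2.27 ± 0.04). Of 9 prostaglandin and leukotriene genes 4 were higher (44.4%) and 4 lower (44.4%) by the plain test, close to the 41.0% and 39.9% of all genes. Past 1.5-fold 3 were higher (33.3%) and 2 lower (22.2%), against 11.1% and 12.2% of all genes. Ptgs2 (COX-2), the inducible cyclooxygenase, had 42.03 and 41.9 FPKM in ERKO OVX and 2.88 and 2.69 FPKM in KO (3.51 ± 0.26, limma adjusted p = 9.33e-05). Ptgs1, the constitutive enzyme, had 14.99 and 14.9 FPKM in ERKO OVX and 34.8 and 36.2 FPKM in KO (-1.20 ± 0.06). Of 15 complement and uptake genes 7 rose (46.7%) and 5 fell (33.3%) by the plain test, likewise near the 41.0% and 39.9% of all genes. Past 1.5-fold 5 rose (33.3%) and 2 fell (13.3%), against 11.1% and 12.2% of all genes. Cfb, factor B of the alternative pathway, had 955 and 958 FPKM in ERKO OVX and 137 and 129 FPKM in KO (2.84 ± 0.03).

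Of 15 genes that IL-4 induces in macrophages 7 were higher (46.7%) and 7 lower (46.7%) by the plain test. These shares are close to the 41.0% and 39.9% of all genes. Past 1.5-fold 2 were higher (13.3%) and 6 lower (40%), against 11.1% and 12.2% of all genes. Arg1, arginase 1, had 1.61 and 1.48 FPKM in ERKO OVX and 12.7 and 12.8 FPKM in KO (-2.43 ± 0.08). Tgm2, a transglutaminase, had 14.01 and 13.2 FPKM in ERKO OVX and 59.7 and 57.1 FPKM in KO (-2.03 ± 0.04). Mgl2, a galactose-type lectin, moved the other way with 99.3 and 96.6 FPKM in ERKO OVX and 24.8 and 23.8 FPKM in KO (1.97 ± 0.05). Chil3, a chitinase-like secreted protein, also rose, with 3812 and 3810.0 FPKM in ERKO OVX and 2062 and 2032 FPKM in KO (0.90 ± 0.03). The cell cycle list held 1 fall past 1.5-fold, that of the proliferation marker Mki67, with 7.23 and 7.32 FPKM in ERKO OVX and 23.8 and 22.95 FPKM in KO (-1.56 ± 0.04). Its 1 rise past 1.5-fold was that of Pcna, the sliding clamp of DNA replication, with 203 and 204 FPKM in ERKO OVX and 118 and 116 FPKM in KO (0.79 ± 0.03). Of 27 tested cell cycle genes 13 rose (48.1%), 4 fell (14.8%) and 10 did not pass, against 41.0% and 39.9% of all genes. The 1 rise and 1 fall past 1.5-fold are 3.7% each, below the 11.1% and 12.2% of all genes.

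Estrogen receptors were barely expressed. In a list of these receptors and of genes tied to the estrogen response in other tissues, 9 fell, Esr1 among them, and 5 rose. Esr2, which encodes ERβ, had 0.386 and 0.349 FPKM in ERKO OVX and 0 and 0.00698 FPKM in KO, below the filter. Gper1, the membrane estrogen receptor, was below 0.1 FPKM in all 4 libraries, as was Pgr, the progesterone receptor and a classic target. Of 15 tested members of the list 5 rose, 9 fell and 1 did not pass, against 41.0% higher and 39.9% lower over all genes. Vegfa, the angiogenic growth factor, had 1.22 and 1.54 FPKM in ERKO OVX and 12.7 and 13.5 FPKM in KO (-2.57 ± 0.06). Nrip1 (RIP140), a corepressor of nuclear receptors, had 4.01 and 4.21 FPKM in ERKO OVX and 17.3 and 17.4 FPKM in KO (-1.85 ± 0.05). Ccnd1, cyclin D1, had 2.81 and 2.71 FPKM in ERKO OVX and 8.29 and 7.73 FPKM in KO (-1.26 ± 0.06). Igf1, a growth factor, rose, with 48.6 and 48.3 FPKM in ERKO OVX and 27.1 and 28.6 FPKM in KO (0.78 ± 0.05). Of 8 tested neighbours of Esr1 on chromosome 10, 2 rose (25%) and 4 fell (50%), none past 1.5-fold.

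By absolute level, the largest FPKM gains after Fth1 were those of B2m, Saa3, Prdx1, Ctsd, Cd74, Ftl1 and Ly6c2, given above. The largest losses were those of Ccr7, given above, and 7 others that include cytoskeletal genes. Tmsb4x, the actin-binding thymosin β4, had 9122 and 9106 FPKM in ERKO OVX and 12368 and 12943 FPKM in KO (-0.47 ± 0.03). Actb, β-actin, had 1824 and 1808 FPKM in ERKO OVX and 2834 and 2831 FPKM in KO (-0.64 ± 0.02). Crip1, a LIM-domain protein, had 535 and 550.3 FPKM in ERKO OVX and 1564 and 1595 FPKM in KO (-1.54 ± 0.03). Csf2rb, the shared β chain of the GM-CSF, IL-3 and IL-5 receptors, had 546 and 546 FPKM in ERKO OVX and 1001 and 1026 FPKM in KO (-0.89 ± 0.03). The log2 fold changes of the remaining 3 were -0.74 ± 0.03 for S100a11, -0.69 ± 0.02 for Actg1 and -0.22 ± 0.02 for Eef1a1.

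The difference also followed transcript length. In 5 bins of equal size the median log2 fold change was 0.16 in the shortest transcripts (124 to 743 bases), then 0.11, 0.06 and -0.07, and -0.20 in the longest (2634 bases and more). Of the 679 genes more than 2-fold higher, 74 were in the longest bin, against 238 of the 788 more than 2-fold lower. Removing a smooth trend with length from every library, an alternative added after the data were seen, left 664 genes higher and 728 lower by more than 2-fold. Nuclear RNAs were among the largest falls. Neat1 (chromosome 19, 5824708 to 5845478, minus strand), the scaffold of paraspeckles, had 14.2 and 14.2 FPKM in ERKO OVX and 190.4 and 192 FPKM in KO (-3.67 ± 0.07). Xist (chromosome X, 103460366 to 103483254, minus strand), the RNA that coats the inactive X, had 7.20 and 7.20 FPKM in ERKO OVX and 62.2 and 66.2 FPKM in KO (-2.99 ± 0.07). On the X chromosome, 2.07% of 338 tested genes were more than 2-fold higher and 7.99% more than 2-fold lower, against 5.98% and 6.94% of all genes. Malat1, another nuclear RNA, had 123 and 122 FPKM in ERKO OVX and 158 and 200.1 FPKM in KO and did not pass the test (limma adjusted p = 0.157). The part of transcript length or RNA handling in these results was not tested beyond that correction.

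**Figure D4:**
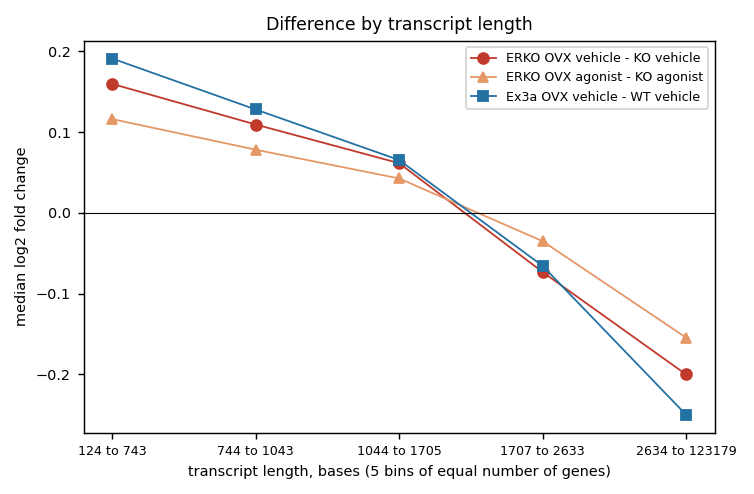
Median log2 fold change (vertical) in 5 bins of transcript length (horizontal, bases) for ERKO OVX vehicle against KO vehicle and for the 2 other contrasts of operated against unoperated libraries. All 3 lines fall with length, the first from 0.16 to -0.20.

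The same operation can be compared after agonists, in libraries that are not used above. ERKO OVX agonist and KO agonist cells had received loxoribine, which activates TLR7, and CpG DNA, which activates TLR9, for 24 h. Their source labels name the same ERKO short receptor, but their genotype field names Esr1(tm1Ksk) where the vehicle libraries have Esr1(tm4.2Ksk), so the allele may differ between the treatments. Of the 1467 genes that differed more than 2-fold between the vehicle groups, 1461 had the same sign after agonists. Of these, 1449 were also called there. The matching share of all tested genes was not counted, so the counts of 1461 and 1449 have no baseline. Estimated depth was 22.6 and 23.0 M fragments in ERKO OVX agonist libraries and 41.6 and 42.0 M in KO agonist libraries. FPKM sums were 613251 and 612322 against 486685 and 487575. Operation, pellet, depth and FPKM sum thus change together in this pair too. The difference between the treatments itself was called in 2701 of 11347 genes (23.8%). Among called genes its 5 most negative values were those of Saa3, Lcn2, Ptgs2, Il12b and Lox.

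Saa3 had 5644 and 5627 FPKM in ERKO OVX agonist libraries and 635 and 645 FPKM in KO agonist libraries, a log2 fold change of 3.14 ± 0.07 against 6.29 ± 0.07 in vehicle cells, and the difference was -3.15 ± 0.10 (limma adjusted p = 7.14e-07). Lcn2 had 1261 and 1251 FPKM in ERKO OVX agonist and 119.5 and 126 FPKM in KO agonist libraries, with a difference between treatments of -2.73 ± 0.15. Ptgs2 had 125 and 124 FPKM in ERKO OVX agonist and 71.2 and 60.2 FPKM in KO agonist libraries, with a difference of -2.59 ± 0.37. In these 3 genes the log2 fold change was smaller after agonists, while the difference in FPKM itself was not. Il12b changed sign, with 262 and 261 FPKM in ERKO OVX agonist and 555 and 532 FPKM in KO agonist libraries (log2 fold change -1.05 ± 0.05, against 1.26 ± 0.05 in vehicle cells). Lox had a difference between treatments of -2.08 ± 0.09. In the other direction Mmp19, a matrix metalloprotease, had 73.8 and 73.6 FPKM in ERKO OVX agonist and 13.5 and 13.6 FPKM in KO agonist libraries (difference 1.26 ± 0.07). The other 4 of the 5 most positive differences were 1.50 ± 0.12 for Leprel1, 1.28 ± 0.13 for Ceacam15, 1.27 ± 0.15 for Il18r1 and 1.26 ± 0.16 for Rnaset2a, all at less than 20 FPKM in the 4 vehicle libraries. Reads of Rnaset2a can be split with its close copy Rnaset2b.

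List medians kept their sign after agonists in the 5 lists given here. After agonists and in vehicle cells they were 0.98 and 1.14 for interferon-stimulated genes, 1.14 and 1.30 for NRF2 targets, and 1.17 and 1.36 for MHC class II. For cytokines they were 0.71 and 1.26, and for maturation genes -1.30 and -0.77.

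A second pair of operated and unoperated vehicle groups, Ex3a OVX against WT, shares no library with this one. By source label Ex3a OVX cells lack ERα, and by genotype field they carry Esr1(tm1Ksk) with the shortened receptor. WT cells have the whole receptor, so that pair changes the receptor as well as operation, pellet, depth and FPKM sum. Estimated depth was 22.8 and 23.4 M fragments in Ex3a OVX and 43.0 and 36.6 M in WT libraries. FPKM sums were 659985 and 657791 against 489612 and 489741. Of the 1467 genes past 2-fold here, 1335 were called in the same direction there and 80 in the opposite one. The matching shares of all tested genes were not counted, so the counts of 1335 and 80 have no baseline. The difference between the 2 contrasts was called in 6436 genes (56.7%). Saa3 again rose, with 4022 and 4009 FPKM in Ex3a OVX and 93.7 and 110.1 FPKM in WT libraries (5.29 ± 0.07). Thbs1 again fell, with 5.59 and 5.41 FPKM in Ex3a OVX and 359.6 and 342 FPKM in WT libraries (-5.76 ± 0.06). Mcpt8 again rose, with 18.5 and 19.02 FPKM in Ex3a OVX and 0.0317 and 0.15 FPKM in WT libraries (4.18 ± 0.09). The length trend was there too, with medians of 0.19 in the shortest and -0.25 in the longest bin.

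Medians had opposite signs in the 2 contrasts in several lists, oxidant defence genes among them. Others were matrix and protease genes (0.795 here and -0.515 in Ex3a OVX against WT) and sterol synthesis genes (0.476 and -0.202). The NRF2 list had a median of 1.30 in ERKO OVX against KO and -0.94 in Ex3a OVX against WT, and the glycolysis and hypoxia list had medians of 0.85 and -0.25. Nqo1 had 10.3 and 12.2 FPKM in Ex3a OVX and 49.4 and 51.5 FPKM in WT libraries (-2.07 ± 0.04), and the difference between the contrasts was 4.48 ± 0.05 (limma adjusted p = 1.4e-11). Prdx1 had 2272 and 2285 FPKM in Ex3a OVX and 3892 and 3904 FPKM in WT libraries (-0.77 ± 0.03). Car4, a membrane carbonic anhydrase, had 20.9 and 22.2 FPKM in ERKO OVX and 2.20 and 2.14 FPKM in KO (2.83 ± 0.05), against 2.15 and 1.90 FPKM in Ex3a OVX and 21.05 and 21.7 FPKM in WT libraries (-2.89 ± 0.05). Il1f9, an IL-36 cytokine, and Gsta4 differed in the same sense, by 4.48 ± 0.07 and 4.95 ± 0.15. Retnla, an IL-4-induced secreted protein, fell in both but far more in Ex3a OVX, with 0.278 and 0.271 FPKM there and 176 and 173 FPKM in WT (-7.11 ± 0.04, against -1.68 ± 0.04 here).

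Interferon-stimulated genes had positive medians in both contrasts, 1.14 here and 1.87 in Ex3a OVX against WT. Genes that rose less here than there were Ms4a4c (2.75 ± 0.06 against 6.18 ± 0.06), the lectin Clec12a (1.51 ± 0.05 against 4.26 ± 0.05), the adhesion molecule Vcam1 (1.38 ± 0.07 against 4.13 ± 0.07) and the chemokine Xcl1 (0.52 ± 0.17 against 3.39 ± 0.17). Xcl1 was low, with 0.591 and 1.04 FPKM in ERKO OVX and 0.134 and 0.402 FPKM in KO, and its rise lost the call in 5 of the settings tried. Emr4, an adhesion-class receptor of myeloid cells, fell here (-1.39 ± 0.06) and rose there (2.05 ± 0.06).

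**Figure D5:**
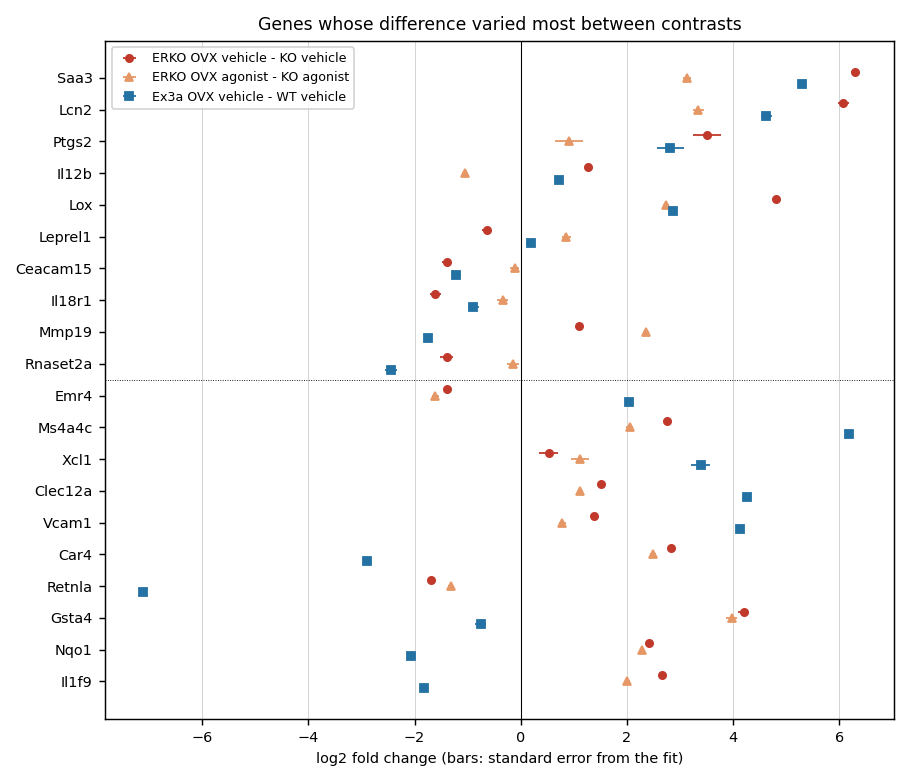
Log2 fold change with its standard error (horizontal) of the 20 genes whose difference varied most between treatments (above the dotted line) or between the 2 pairs of operated and unoperated groups (below it). Circles are ERKO OVX vehicle over KO vehicle, triangles ERKO OVX agonist over KO agonist and squares Ex3a OVX vehicle over WT vehicle, and Il12b, Leprel1, Emr4, Car4, Gsta4, Nqo1 and Il1f9 are among the genes that change sign.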

How the data were processed

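Libraries were TruSeq paired-end, sequenced on a HiSeq2500 per the labels' protocols. The deposited table gives gene-level FPKM made by the authors; per the submitters' processing notes the build was mm10 and the tools included STAR and HTSeq, with cutadapt and FastQC, and no source used here names the program behind FPKM. Because FPKM is scaled to transcript length and library total, whole reads could not be recovered and no count test was run.

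Genes at 1 FPKM or more in 2 or more of 16 libraries were fitted on log2(FPKM + 1) with limma 3.58.1 (R 4.3.3; trend and robust options, 1 coefficient per group, all 8 groups). The libraries of each operated pair, which differ by less than sampling noise, were averaged and counted as 1 sample, and standard errors therefore assume that operated groups vary like unoperated ones. P-values were adjusted by Benjamini-Hochberg over all genes tested, at 0.05. Left out were 1234 small RNA rows, and 6 isolated zeros were set to missing. Gene spans are from GENCODE M21 and RefSeq (GRCm38).

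Named genes were the 15 largest changes in each direction (past 1.5-fold, 10 FPKM or more), genes off in 1 group, the 8 largest FPKM differences, the largest members of each list and the 5 largest of each difference between contrasts. Members and lists were chosen with earlier results of these data known. Replicate numbers did not pair the libraries (correlation of replicate differences 0.006, 2 pairs). Alternatives were other pseudocounts, filters, scalings, sample sets and fit options, leaving out each library, a replicate block and, added after the data were seen, removal of the length trend.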

Additional observations from a re-analysis of the deposited data

Results flagged for a closer look

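The difference between ERKO OVX and KO varied with treatment in genes listed here with the difference of the log2 fold changes, agonist minus vehicle, each past the limma interaction test. It was -3.15 for Saa3, -2.73 for Lcn2, -2.59 for Ptgs2, -2.32 for Il12b and -2.08 for Lox. It was 1.50 for Leprel1, 1.28 for Ceacam15, 1.27 for Il18r1, 1.26 for Mmp19 and 1.26 for Rnaset2a. The genotype field differs between the treatments, and its part was not tested.

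The difference also varied between this contrast and Ex3a OVX against WT. As the log2 fold change here minus that there, it was -3.43 for Emr4, -3.43 for Ms4a4c, -2.86 for Xcl1, -2.75 for Clec12a and -2.75 for Vcam1. It was 5.72 for Car4, 5.42 for Retnla, 4.95 for Gsta4, 4.48 for Nqo1 and 4.48 for Il1f9.

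The small RNA row Mir6236, which lies outside the tests, was listed at 13065 and 12526 FPKM in ERKO OVX vehicle libraries and at 745 and 4198 FPKM in KO vehicle libraries. The KO libraries differed more from each other than the ERKO OVX libraries did, and FPKM of so short a row is uncertain.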

How the results depend on the processing

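Of 238 named genes tested, 226 kept direction and call under every setting in which they were tested (225 with a filter of 5 FPKM). The calls of 12 were lost in at least 1: Xcl1 in 5 settings, Ccne2, Cst3, Mtrf1l and Rpl5 in 2 each, and Fosl2, Hist1h1d, Hmgcs1, Hspe1, Rps2, Rps3 and Slc7a11 in 1 each. Of these, 4 changed sign: Hspe1 to -0.24 and Rps2 to -0.014 under quantile normalization, and Hist1h1d to 0.087 and Slc7a11 to 0.032 with the length trend removed. At a pseudocount of 5 FPKM, which shrinks folds of low genes by construction, 1586 genes passed 1.5-fold and 693 differed over 2-fold, 385 of them higher and 308 lower, against 679 and 788 at 1 FPKM. At a pseudocount of 0.1 FPKM 935 genes were over 2-fold higher and 1246 over 2-fold lower. The share of calls that were higher lay between 49.8% and 55.3%, the last with a filter of 5 FPKM. Leaving out KO vehicle replicate 2 lost the calls of Ccne2, Cst3, Mtrf1l and Rpl5. The replicate numbers share only a number; with all 16 libraries and a replicate block 4781 genes were higher and 4658 lower, against 4780 and 4661 with all 16 libraries singly. The fit to the 4 libraries alone gives no difference between contrasts, and the fit to vehicle groups alone none between treatments. Operated libraries had lower estimated depth than unoperated ones, which limits their low values.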
